A study of Rattus norvegicus with 4 samples.

Results

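The liver of a wild-type rat (*Rattus norvegicus*) that had breathed 6% desflurane for 6 hours was compared with the liver of a rat killed as soon as it lost consciousness under the same gas (desflurane 0 h). These were 2 of the 4 libraries of the series. The other 2 came from rats given 4.5% sevoflurane, and of these the sevoflurane 0 h library served here as a second control animal. Every rat in the series had been exposed to one of the gases, controls for a moment only, and no library came from a rat that breathed air alone. The labels give neither strain nor age. The submitters state that the control and anesthetized livers were taken 6 hours apart, so that hours of anesthesia and time of day cannot be told apart in this pair. There was 1 library in each group, and no p-value can be given. All sizes below are differences between these libraries, and the difference between the 2 control animals is set beside them as the background.

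Desflurane is a fluorinated ether that is inhaled as a vapour and leaves the body largely unchanged through the lungs. The liver is the main site where drugs are oxidized by cytochrome P450 enzymes, which are heme proteins fed with electrons by the P450 reductase. It also makes glucose and urea during fasting under the control of insulin, glucagon and glucocorticoids. Many of its metabolic genes run on a daily clock. In it the activator BMAL1 (encoded by *Arntl*) drives the *Per*, *Cry* and *Dbp* genes through the E-box, a short DNA element. Many of these driven genes, though not *Cry1*, peak in nocturnal animals late in the light phase.

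The tables held 16985 named genes, with expression in TPM (transcripts per 1000000, a value per gene length and per library). A gene was called higher when its TPM at 6 h was above 2 and more than 2 times that at 0 h, and lower when the reverse held. Of 8372 genes above that minimum, 343 were higher and 465 were lower after 6 h of desflurane, which is 4.1% and 5.55% (9.65% together). The same rule between the 2 control animals called 162 genes higher and 66 lower of 8263, or 1.96% and 0.799% (2.76% together). At more than 4 times, 106 genes were higher (1.27%) and 71 lower (0.848%) in the desflurane pair, against 16 (0.194%) and 5 (0.0605%) between the controls. Which direction had more calls depended on the scaling. With libraries brought to a common median ratio across the 4 of them, 424 genes were higher and 360 lower. In bulk tissue, fewer cells of a type and less RNA per cell cannot be told apart.

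**Figure D1:**
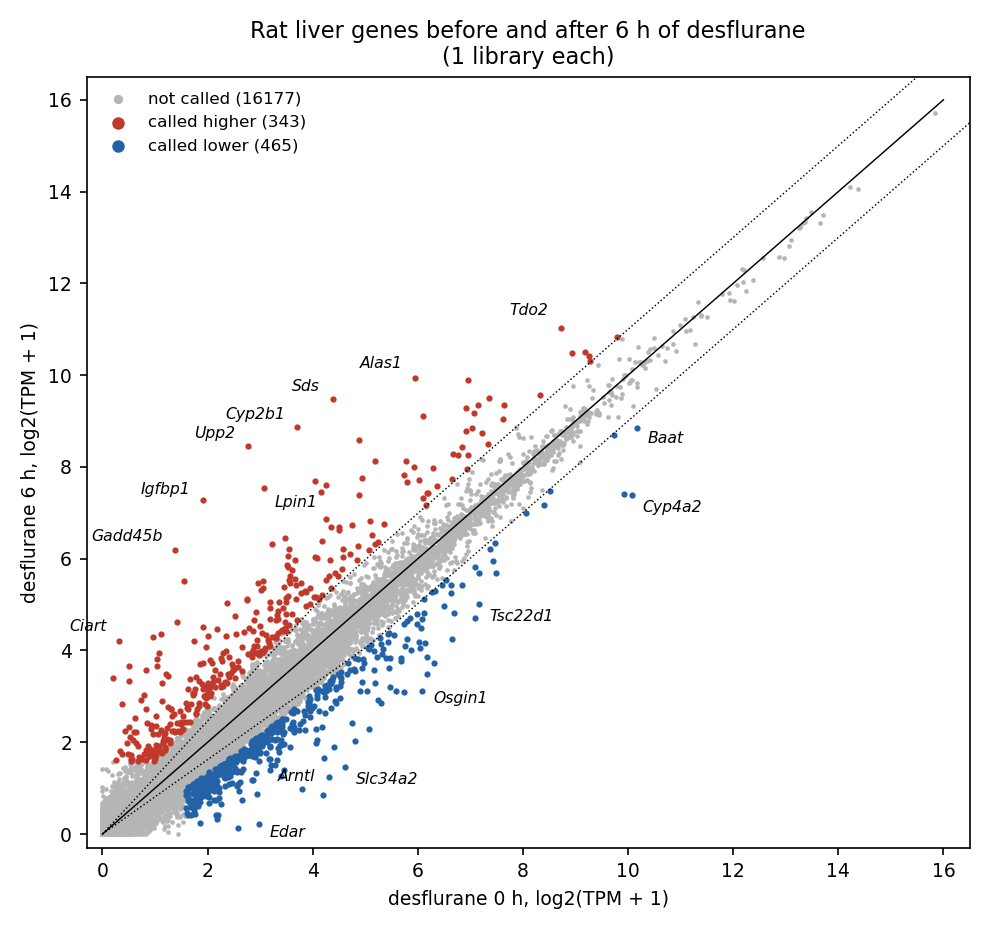
Expression of each named gene at desflurane 0 h (horizontal) and desflurane 6 h (vertical), both in log2(TPM + 1), 1 library each. Red points are the 343 genes called higher and blue points the 465 called lower, grey points are all others, the solid line marks equal values and the dotted lines a ratio of 2, and *Upp2*, *Cyp2b1*, *Sds* and *Alas1* are among the genes farthest above the lines.

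Change is given as the difference of log2(TPM + 1), a scale on which weakly expressed genes appear to change less than they do. Over the 9227 genes with a mean of at least 1 TPM in the desflurane pair, the median change was -0.10, and 5.86% of genes (541) moved by more than 1. Between the controls the median difference was 0.12, and 0.932% of genes (86) differed by more than 1. The middle of the distribution was thus displaced slightly below 0 in one comparison and above 0 in the other, and the median-of-ratios scaling shifted log2 ratios of TPM by 0.115. Medians of gene groups are therefore given below as relative medians, that is, the median change of the group less the median change of all genes, followed by the same quantity between the 2 controls. Counts of called genes in a group stand beside the 4.1% higher and 5.55% lower of all genes above the minimum. The groups were chosen with earlier results of these data known, so their counts are no test. Groups can share genes, and a shared gene is counted in each.

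**Figure D2:**
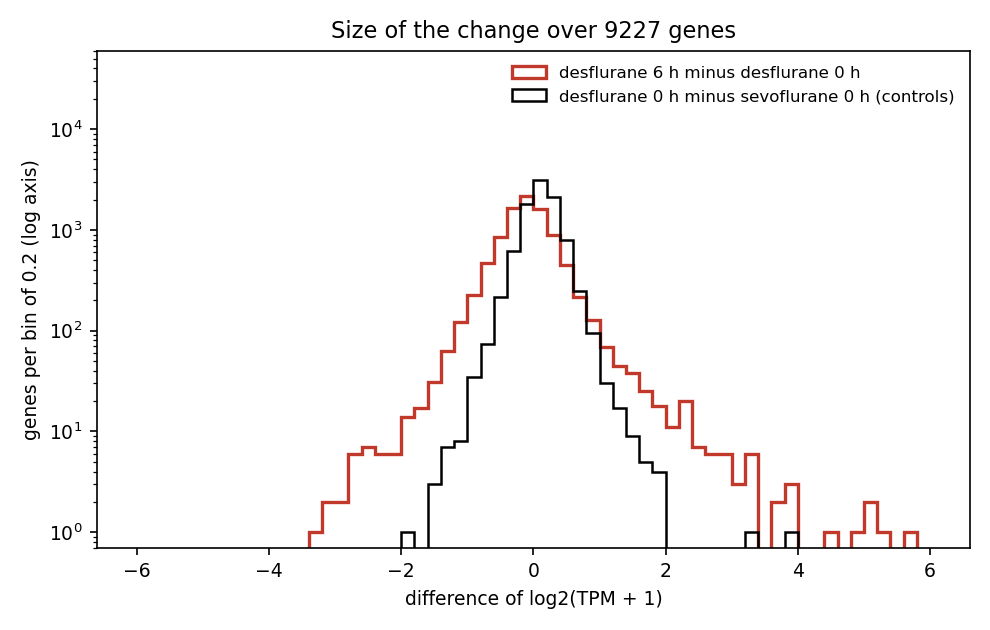
Number of genes (log axis) by the difference of log2(TPM + 1), in bins of 0.2, over 9227 genes. The red line is desflurane 6 h minus desflurane 0 h and the black line is the difference between the 2 control animals, which has 86 genes beyond 1 in either direction against 541 for the red line.

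Calls were unevenly spread over expression levels. Among 2121 genes whose larger value lay between 2 and 5 TPM, 85 were higher and 194 lower, and the controls differed for 5.85% of such genes. Among the 164 genes above 500 TPM, 17 were higher and 4 lower, and the controls differed for 0.667%. Calls of lower expression thus lay mostly among genes of low level, and calls among the most abundant transcripts were mostly of higher expression. The summed TPM of the 343 higher genes went from 9074 to 31550 (8737 in the other control), and that of the 465 lower genes from 12525 to 4303 (10846 in the other control). Of the 343 higher genes, 281 (81.9%) were also called against the sevoflurane 0 h animal, and 339 were above both controls. Of the 465 lower genes, 250 (53.8%) were also called against that animal, and 454 were below both. Against that animal in place of the desflurane control, 508 genes were higher (6.13% of 8293) and 381 lower (4.59%), 10.7% together.

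**Figure D3:**
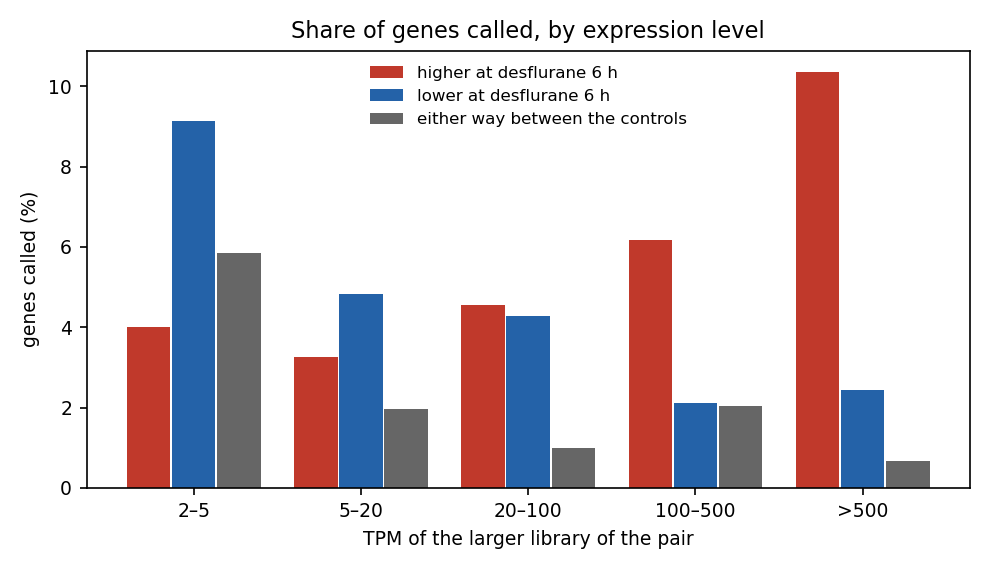
Share of genes called (percent) in 5 classes of expression, set by the larger TPM of the pair compared. Red and blue bars are genes higher and lower at desflurane 6 h than at desflurane 0 h, and grey bars are genes called in either direction between the 2 controls, whose share was 5.85% between 2 and 5 TPM and 0.667% above 500 TPM.

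*Upp2* had the largest change of all genes on the log2(TPM + 1) scale. It encodes uridine phosphorylase 2, an enzyme that splits uridine in pyrimidine salvage. It stood at 5.83 TPM at desflurane 0 h and 351 TPM at 6 h (2.74 in the other control), a ratio of 60.2, and its mean read coverage went from 20.1 to 1276. In the files' coordinates (rat build rn6) the gene spans chr3:44806106-44846464. The 300 bases around its annotated start, 250 before and 50 after, are shown because it is the leading gene. They come from the RefSeq annotation of rat build GRCr8, chr3:63681576-63681875, plus strand, where 9 short motifs were sought on both strands. It held no E-box, D-box or heat shock motif (described below). It held 1 match each, in capitals, to the core of the glucocorticoid response element (ACANNNTGT, where N is any base), which begins 99 bases before the start, and to that of the interferon-stimulated element (TTCNNTTTC, read on the other strand), whose run begins 70 bases before it. These cores are common, in 5.13% and 8.24% of all windows.
*Upp2*: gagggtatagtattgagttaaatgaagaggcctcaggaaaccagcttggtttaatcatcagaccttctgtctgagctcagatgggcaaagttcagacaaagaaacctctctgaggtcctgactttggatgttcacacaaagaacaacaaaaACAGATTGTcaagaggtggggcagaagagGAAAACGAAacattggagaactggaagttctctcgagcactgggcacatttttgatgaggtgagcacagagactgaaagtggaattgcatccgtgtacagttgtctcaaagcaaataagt

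*Igfbp1*, the insulin-repressed binding protein of insulin-like growth factors (rn6 chr14:87448716-87453783), rose from 2.74 to 154 TPM (5.29 in the other control), 56.1 times. *Sds*, serine dehydratase, which feeds serine into gluconeogenesis (chr12:41620430-41627741), rose from 19.8 to 714 TPM (8.66). *Gadd45b*, a stress-induced growth arrest gene, rose from 1.6 to 72.5 TPM (1.31). In these genes both control animals were far below the 6 h animal. *Lpin1*, a phosphatidate phosphatase of triglyceride synthesis and a coactivator of fatty acid oxidation genes (chr6:41799748-41870046), rose from 7.43 to 186 TPM (5.58). *Got1*, the cytosolic aspartate aminotransferase, rose from 15.5 to 207 TPM (18.5), and *Coq10b*, a coenzyme Q binding protein of mitochondria, from 18 to 194 TPM (13.5). The zinc finger gene *Zfp354a* rose from 16.8 to 174 TPM (5.18). *Rell1*, a relative of a TNF receptor family member, rose from 1.17 to 19.4 TPM (1.98).

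The genes that fell most included transporters, receptors and cytoskeletal genes. The phosphate transporter gene *Slc34a2* (rn6 chr14:60257211-60276516) fell from 23.5 to 1.74 TPM (13.3 in the other control), 13.5 times. *Edar*, the ectodysplasin receptor (chr20:28181194-28214990), fell from 6.86 to 0.16 TPM (3.10), at a mean coverage at 6 h of only 0.6. *Scrn1*, secernin 1, fell from 18.9 to 1.36 TPM, but its other control was at 3.99 TPM, so that much of this difference also lay between the controls. *Id4*, an inhibitor of basic helix-loop-helix factors, fell from 32.5 to 3.92 TPM (39.5), and *Tuba4a*, an alpha-tubulin, from 52.1 to 7.59 TPM (50.9). *Inhbe*, which encodes a secreted subunit of the activin family made by hepatocytes, fell from 71.2 to 10.2 TPM (61.1). For these last 3 genes both controls were close and the 6 h animal stood apart. *Dipk2a* (27.1 to 3.07 TPM, 38.0 in the other control), *Gimd1* (12.9 to 0.97 TPM, 18.5) and the uncharacterized locus *RGD1559600* (20.2 to 2.71 TPM, 11.9) also fell.

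**Figure D4:**
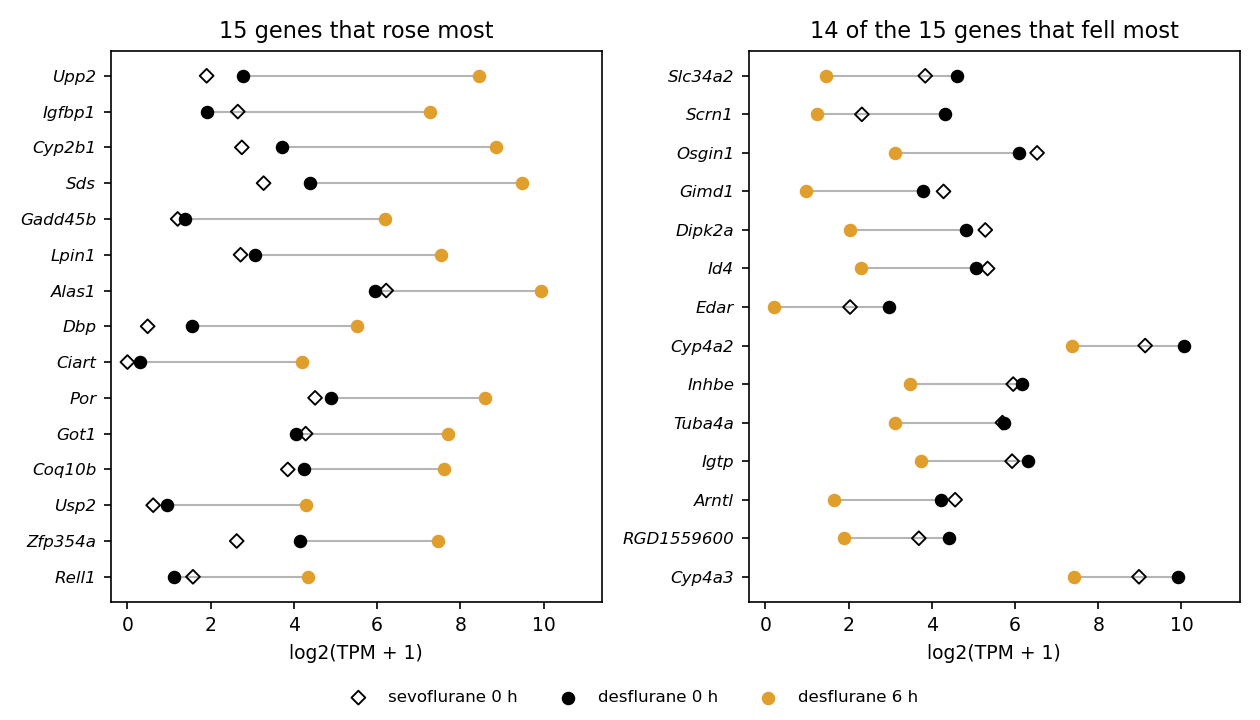
Expression in log2(TPM + 1) of the 15 genes that rose most (left) and 14 of the 15 that fell most (right). Black circles are desflurane 0 h, orange circles desflurane 6 h and open diamonds the other control, sevoflurane 0 h, 1 library each, and a grey line joins the desflurane pair. In every gene shown the orange point lies outside both controls.

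By amount, the largest gains belonged to abundant liver enzymes. *Tdo2*, the tryptophan dioxygenase, rose from 422 to 2093 TPM (565 in the other control). *Mat1a*, which makes S-adenosylmethionine, rose from 489 to 1436 TPM (373). *Slc25a47*, a mitochondrial carrier of hepatocytes, rose from 162 to 720 TPM (100.4). The largest losses belonged to the omega-hydroxylase genes *Cyp4a2* and *Cyp4a3* and to *Baat*, the enzyme that joins bile acids to glycine or taurine, which fell from 1153 to 459 TPM (1077). *Hao2*, a peroxisomal hydroxyacid oxidase, fell from 846 to 411 TPM (755), and the steroid enzyme genes *Hsd3b5* (264 to 127 TPM, 296 in the other control) and *Akr1c2* (366 to 177 TPM, 226) fell just past the ratio of 2. *Stac3* fell from 180 to 50.9 TPM (295), and *Tsc22d1*, a transcriptional regulator induced by TGF-beta, from 143 to 31.2 TPM (103).

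Genes of drug oxidation rose as a small set with large sizes. Of 30 P450 and associated genes above the minimum, 5 rose and 0 fell, and the relative median was 0.01 (0.05 between the controls), so most of the list stayed near the rest of the genes. *Cyp2b1*, the phenobarbital-inducible P450 (rn6 chr7:99158102-99181774), rose from 12.1 to 465 TPM (5.72 in the other control), 38.5 times. *Cyp2b2*, its near-identical relative (chr1:83103925-83119578), rose from 29.8 to 217 TPM (35.5). Reads of such copies can be assigned to either gene, so the sum is the firmer value, and *Cyp2b1* and *Cyp2b2* together went from 41.9 to 682 TPM (41.2), 16.3 times. *Por*, which encodes the reductase that passes electrons to every microsomal P450 (chr12:23998411-24046814), rose from 28.6 to 386 TPM (21.8), 13.5 times. *Cyp2e1*, the P450 that oxidizes small volatile molecules, rose from 610 to 1364 TPM (543), and *Cyp3a23/3a1*, a steroid- and drug-inducible P450, from 616 to 1265 TPM (488). The abundant *Cyp2c11*, a male-specific steroid hydroxylase, was at 1365 and 1520 TPM (1772) and was not called.

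*Alas1*, the first and rate-limiting enzyme of heme synthesis (rn6 chr8:114927706-114941038), rose from 60.9 to 979 TPM (73.5 in the other control), 16.1 times. It was the only one of 12 heme genes that rose. *Uros*, a later enzyme of the pathway, fell from 5.92 to 2.30 TPM (3.96), and *Alad* (114 and 91.8 TPM) and *Urod* (44.1 and 43.5 TPM) were not called. Of the nuclear receptors that govern drug metabolism, *Nr1i2* (PXR) rose from 34.1 to 90.9 TPM (26.0). Together with *Ppara* it made 2 higher among 21 receptor genes above the minimum, while *Rxrg* fell from 6.96 to 3.24 TPM (6.06). Of 39 conjugation enzymes, 3 were higher and 1 lower, a share near the 9.65% called over all genes. Their relative median was 0.12 (-0.02 between the controls). *Nnmt*, nicotinamide N-methyltransferase, rose from 22.8 to 73.4 TPM (25.7), *Gsta3* from 2.87 to 6.16 TPM (1.23) and *Gstm5* from 1.88 to 4.93 TPM, whose other control was at 4.27. *Nat2* fell from 4.22 to 1.54 TPM (4.74). Among 20 measured targets of NRF2, the oxidant-sensing factor, *Osgin1* (chr19:52070227-52085491) fell from 67.0 to 7.73 TPM (91.4), and it was the only one called.

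Among genes that turn amino acids into glucose and urea, a larger share was higher than the 4.1% of all genes. The lists were chosen with earlier results of these data known, so this excess is no test. The share higher was also larger among the most abundant genes, as given above. Of 30 amino acid catabolism genes, 9 rose and 0 fell, with a relative median of 0.31 (-0.19 between the controls). Beside *Sds*, *Tdo2* and *Got1*, these included *Tat*, tyrosine aminotransferase, from 119 to 623 TPM (123 in the other control), and *Oat*, ornithine aminotransferase, from 108 to 305 TPM (139). Enzymes of the urea cycle were among them. *Asl* rose from 130 to 459 TPM (101), *Arg1* from 886 to 1822 TPM (708), and *Ass1* from 580 to 1457 TPM, less than 2 times its level of 739 TPM in the other control. *Cps1*, which starts the cycle, was at 909 and 1298 TPM (1072) and was not called. Amino acid transporters went the same way, with 6 higher and 2 lower of 17 and a relative median of 0.64 (-0.07). *Slc38a2*, a sodium-coupled transporter of neutral amino acids, rose from 18 to 116 TPM (14.7), the cationic transporter *Slc7a2* from 63.6 to 210 TPM (52.1), and the mitochondrial ornithine carrier *Slc25a15* from 114 to 345 TPM (110). The taurine transporter *Slc6a6* fell from 17.1 to 7.64 TPM (25).

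Of 17 genes of gluconeogenesis and glycerol use, 5 rose and 1 fell, with a relative median of 0.49 (0.06 between the controls). *Ppargc1a*, the coactivator PGC-1alpha that drives the fasting program, rose from 0.412 to 9.09 TPM (0.026 in the other control). *G6pc*, the glucose-6-phosphatase that releases glucose, rose from 199 to 651 TPM, but the other control was at 361 TPM and the call is lost against it. *Gpd1*, which links glycerol to glycolysis, rose from 196 to 529 TPM (220). *Pck1*, the enzyme that commits oxaloacetate to glucose, was at 942 and 1762 TPM (527), just short of a ratio of 2. The lactate transporter *Slc16a1* fell from 87.6 to 42.2 TPM (69.7). In glycogen metabolism 2 of 13 genes rose and 1 fell, and the relative median was -0.01 (-0.12). *Gys2*, the liver glycogen synthase, rose from 19.2 to 103 TPM (23.2), while the glycogen-targeting subunits of protein phosphatase 1 went in opposite directions. *Ppp1r3c* rose from 72.3 to 172 TPM (109), and *Ppp1r3b* fell from 99.97 to 18.2 TPM (118). The call of *Ppp1r3c* is lost against the other control. Of 20 genes of glycolysis, 1 rose and 1 fell. The one that rose was *Pfkfb3*, from 0.952 to 3.52 TPM (0.572).

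Lipid genes were called one by one rather than as groups. Of 30 genes of fatty acid oxidation and ketone synthesis, 3 rose and 2 fell, and the relative median was 0.13 in both comparisons. *Cpt1a*, which admits fatty acids to mitochondria, rose from 77.6 to 251 TPM (27.9 in the other control), and *Ppara*, the fatty acid sensing receptor, from 12.7 to 43.6 TPM (9.70). *Cyp4a2* and *Cyp4a3*, which hydroxylate the end of fatty acids, fell from 1075 to 165 TPM (558) and from 966 to 170 TPM (503). Their spans overlap in the files (rn6 chr5:134196910-134207863 and chr5:134196915-134484851), and their sum fell from 2041 to 335 TPM, 6.08 times, with 1061 TPM in the other control. *Acaa2*, a thiolase of mitochondrial fatty acid oxidation, was at 679 and 604 TPM (560) and was not called.

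Of 17 fatty acid synthesis genes 1 rose and 2 fell. *Srebf1*, the master regulator SREBP-1, fell from 102 to 27.1 TPM (146 in the other control) and *Mid1ip1*, which promotes the polymerization of acetyl-CoA carboxylase, from 38.5 to 6.24 TPM (90.6). *Thrsp*, a lipogenic regulator related to *Mid1ip1*, rose from 148 to 429 TPM, with 305 TPM in the other control. The desaturase *Scd* was at 153 and 158 TPM, against 402 TPM in the other control, and the relative median of this list was 0.01 for desflurane and -0.56 between the controls, where 5 members were lower in the desflurane 0 h animal. Sterol genes had the same split between control animals (relative median 0.05 for desflurane, -0.58 between the controls). *Insig1*, which retains the sterol sensor in the endoplasmic reticulum, rose from 53.6 to 278 TPM (143), whereas *Hmgcs1* fell from 175 to 79.9 TPM (212) and *Mvd* from 3.39 to 1.67 TPM (4.64), 1 higher and 3 lower of 25 in all.

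Genes of lipid droplets and lipoproteins had 5 higher and 2 lower of 27, with a relative median of 0.07 (0.06 between the controls). *Mfsd2a*, a transporter of lysophospholipids induced by fasting, rose from 35.2 to 281 TPM (10.9 in the other control). *Pnpla2*, the triglyceride lipase ATGL, rose from 10.6 to 55.4 TPM (8.94), and *G0s2*, the inhibitor of that lipase, fell from 172 to 60.5 TPM (281). *Lpin2* rose from 10.2 to 32.5 TPM (11.3). *Gpam*, which starts glycerolipid synthesis, fell from 50.2 to 13.3 TPM (59.0). *Baat* was the only one called of 17 bile acid genes, whose relative median was 0.10 (-0.02).

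Most genes listed as induced by glucocorticoids, the adrenal hormones of stress and of the daily rhythm, were higher. Of 17 measured members, 12 rose and 0 fell, where 4.1% of all genes rose. This list too was chosen with earlier results of these data known, so the excess is no test. Its relative median was 2.30 (0.06 between the controls, where 4 members were higher and 1 lower). Beside *Igfbp1*, *Tat* and *Tdo2* it held *Dusp1*, a phosphatase of MAP kinases, from 10.7 to 73.1 TPM (24.9 in the other control), and *Cebpb*, a factor of the fasting and acute phase responses, from 28.4 to 168 TPM (42.2). The metallothionein genes *Mt1* and *Mt2A*, which bind zinc and copper, rose from 140 to 650 TPM and from 123 to 948 TPM. Their other control was far lower, at 13.2 and 6.98 TPM, and the sum of both genes ran from 20.2 TPM in that animal to 263 TPM at desflurane 0 h and 1598 TPM at 6 h. As a ratio, the 2 control animals thus differed more in these genes than the desflurane pair did, though less by amount of TPM. *Sgk1* was at 21.6 and 26.7 TPM (32.7) and was not called.

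The insulin and IGF axis moved in both directions, with 6 higher and 4 lower of 20. *Irs2*, an insulin receptor substrate that insulin represses, rose from 0.498 to 3.15 TPM (0.659 in the other control), *Foxo1*, the factor held back by insulin, from 3.06 to 7.44 TPM (2.45), and *Igfbp2* from 1.77 to 5.43 TPM (0.898). The pseudokinases *Trib1* and *Trib3* rose from 4.78 to 19.6 TPM (4.52) and from 3.02 to 18.9 TPM (4.97). *Irs1* fell from 7.59 to 3.14 TPM (6.61), and *Igfals*, the circulating carrier subunit, from 164 to 73.5 TPM (140). *Igf1* itself was at 244 and 202 TPM (225). In the list of cytokine and growth hormone signalling, 2 rose and 4 fell of 18. *Socs2*, a growth hormone induced inhibitor, fell from 29.8 to 8.98 TPM (44.5), *Cish*, another, from 2.29 to 0.522 TPM (0.991) and *Stat5a* from 4.34 to 1.41 TPM (6.27). *Bcl6* fell from 7.99 to 2.12 TPM, but the other control was lower than both of these at 1.66 TPM. *Il1r1*, the interleukin-1 receptor, rose from 15.4 to 65.0 TPM (19.5).

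Immediate early genes, which answer growth and stress signals within minutes, had 12 higher and 2 lower of 20, where 4.1% of all genes rose. Their relative median was 1.26 (-0.07 between the controls). *Jun* rose from 7.27 to 40.0 TPM (7.80 in the other control), *Maff* from 0.154 to 9.63 TPM (0.116), *Zfp36*, which destabilizes cytokine mRNAs, from 1.32 to 10.1 TPM (2.37), and *Gadd45a* from 11.7 to 45.9 TPM (4.48). The members that fell were *Dusp6*, a phosphatase specific for ERK, from 16 to 3.13 TPM (11.2), and *Ier2*, from 18.2 to 8.51 TPM (17.6). Among 18 p53 and growth arrest genes, 6 rose and 2 fell, where 4.1% of all genes rose and 5.55% fell. *Cdkn1a*, the cell cycle inhibitor p21, rose from 4.30 to 13.5 TPM (3.10) and *Tp53inp1* from 17.0 to 83.1 TPM (12.9), while *Mdm2*, a direct p53 target, was at 10.4 and 13.5 TPM (7.83). *Plk2* fell from 24.2 to 10.2 TPM (18). Of 20 cell division genes, 2 rose and 1 fell: *Ccne1*, cyclin E1, rose from 0.289 to 6.16 TPM (0.600) and *Ccnd2*, cyclin D2, fell from 5.14 to 1.2 TPM (3.66). Of 10 hypoxia-induced genes 1 rose and 2 fell. *Bnip3* rose from 36.7 to 80.8 TPM (36.3), *P4ha1* fell from 8.17 to 2.75 TPM (7.59), and *Vegfa* was at 28.4 and 22.6 TPM (26.6).

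Clock genes that are highest late in the light phase were higher. Of 12 such genes, 11 rose and 0 fell, where 4.1% of all genes rose. Their relative median was 1.56 (0.21 between the controls). *Dbp*, the clock output factor (rn6 chr1:101687896-101692845), rose from 1.92 to 44.8 TPM (0.40 in the other control), 23.4 times. *Ciart*, a repressor of the clock (chr2:197987705-197991198), rose from 0.241 to 17.5 TPM and was listed at 0 in the other control. *Usp2* rose from 0.943 to 18.7 TPM (0.536), *Per1* from 1.38 to 9.95 TPM (0.352), *Per3* from 0.355 to 3.71 TPM (0.207) and *Cry2* from 2.09 to 7.94 TPM (2.57). *Per2* was not called, at 1.51 and 2.10 TPM (1.24). Among genes highest around lights on, *Arntl* (chr1:178039063-178137471) fell from 17.6 to 2.14 TPM (22.6), 8.23 times, and *Clock*, its partner, was at 8.83 and 5.41 TPM (8.73), while *Nfil3*, a repressor of *Dbp* target genes, was at 15.2 and 18 TPM (17.7). In this list 1 of 4 genes above the minimum was lower and 0 higher, and the relative median was -0.52 (-0.34 between the controls). The hour at which each rat was killed is not given in the labels.

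The E-box (CACGTG, which reads the same on both strands) was sought in the 300-base windows around gene starts. It was present in 16.6% of windows of the higher genes (47 of 283 with a window), 6.27% of those of the lower genes (25 of 399), 10.2% of all genes above the minimum and 7.89% of all windows. Of 11 late light phase genes with a window, 3 held it, namely *Ciart*, *Tef*, which rose from 7.25 to 19.7 TPM (4.19), and *Bhlhe40*, from 6.69 to 16.2 TPM (9.86, a call that is lost against this control). Their windows are shown because these genes changed and carry the element, in GRCr8 at chr2:186112197-186112496 (minus strand), chr7:115206577-115206876 (plus) and chr4:143174200-143174499 (plus), with the E-box in capitals. The copies in *Ciart* begin 93, 35 and 21 bases before the start, that in *Tef* 198 bases and that in *Bhlhe40* 220 bases before it. The D-box, bound by *Dbp* and *Tef* products (TTATGTAA or TTATGCAA), was in 1.77% of windows of higher genes, 0.501% of those of lower genes and 1.07% of genes above the minimum, and the cAMP response element (TGACGTCA) in 4.95%, 3.01% and 3.45%. The glucocorticoid core was in 3.89%, 6.27% and 3.99% of the same groups, the antioxidant element (TGACNNNGC) in 15.9%, 12.5% and 15.4%, the interferon core in 5.65%, 7.02% and 7.56%, the sterol element (TCACNCCAC) in 1.77%, 1.25% and 1.08%, and the C/EBP-ATF element (TGATGCAA) in 1.77%, 1.5% and 0.663%. A match is a run of letters, and no binding was measured.
*Ciart*: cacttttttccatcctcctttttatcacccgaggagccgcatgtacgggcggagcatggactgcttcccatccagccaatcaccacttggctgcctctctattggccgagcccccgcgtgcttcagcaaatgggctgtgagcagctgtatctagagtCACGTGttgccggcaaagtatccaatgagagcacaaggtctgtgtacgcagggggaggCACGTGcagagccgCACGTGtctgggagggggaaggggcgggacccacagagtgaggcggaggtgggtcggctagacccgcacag
*Tef*: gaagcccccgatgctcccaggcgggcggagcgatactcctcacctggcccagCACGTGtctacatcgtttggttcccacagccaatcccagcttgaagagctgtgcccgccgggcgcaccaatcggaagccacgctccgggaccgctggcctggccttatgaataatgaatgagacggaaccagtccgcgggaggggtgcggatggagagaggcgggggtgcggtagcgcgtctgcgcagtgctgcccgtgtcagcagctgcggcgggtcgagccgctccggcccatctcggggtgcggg
*Bhlhe40*: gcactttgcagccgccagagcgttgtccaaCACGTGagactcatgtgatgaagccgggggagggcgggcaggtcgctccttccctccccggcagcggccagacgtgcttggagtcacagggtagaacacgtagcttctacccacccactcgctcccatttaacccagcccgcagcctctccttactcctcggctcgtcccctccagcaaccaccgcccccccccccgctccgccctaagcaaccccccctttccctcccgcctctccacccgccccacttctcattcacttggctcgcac

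Heat shock proteins and their cochaperones, which fold proteins in the cytosol and are driven by the factor HSF1, mostly had changes below 0. Of 22 measured genes 4 fell and 0 rose, and 21 had a negative change, where 38.5% of all genes had a positive one, with a relative median of -0.46 (0.06 between the controls). *Chordc1*, a cochaperone of HSP90, fell from 17.0 to 4.04 TPM (12.1 in the other control), *Hsph1*, which recharges HSP70, from 19.3 to 5.76 TPM (11.7), and *Fkbp4*, an HSP90 partner of steroid receptors, from 68.2 to 27.1 TPM (70.0). *Hspa8*, the constitutive HSP70, fell from 337 to 142 TPM, but the other control was already at 139 TPM, and its value sums 3 loci of one name. *Hsp90ab1* was at 223 and 158 TPM (198), and the mitochondrial chaperonin *Hspd1*, at 202 and 225 TPM (226), was the one member above 0.

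The heat shock element repeat GAANNTTC (N is any base) was held by 12 of 20 windows of this list. Holders other than the 4 genes that fell were not called, among them *Hspd1*, *Hspe1*, *Dnajb1* and *Bag3*. Over the other groups the repeat was present in 7.02% of windows of lower genes, 2.47% of those of higher genes, 5.49% of genes above the minimum and 6.65% of all windows. The windows of the 4 genes that fell are shown with the repeat in capitals, in GRCr8 at chr8:23650571-23650870 (plus strand), chr12:10427118-10427417 (plus), chr4:163397869-163398168 (minus) and chr8:50080264-50080563 (plus). In *Chordc1* the repeats begin at bases 11 and 21 of the transcribed side, with the start as base 1, in *Hsph1* 31 and in *Fkbp4* 137 bases before it, and in *Hspa8* 213 and 50 bases before it.
*Chordc1*: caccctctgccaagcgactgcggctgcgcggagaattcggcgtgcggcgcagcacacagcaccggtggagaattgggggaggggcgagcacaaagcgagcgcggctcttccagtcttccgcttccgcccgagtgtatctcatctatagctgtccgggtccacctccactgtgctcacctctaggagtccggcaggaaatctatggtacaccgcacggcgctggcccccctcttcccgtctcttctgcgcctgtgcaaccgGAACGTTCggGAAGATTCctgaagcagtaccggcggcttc
*Hsph1*: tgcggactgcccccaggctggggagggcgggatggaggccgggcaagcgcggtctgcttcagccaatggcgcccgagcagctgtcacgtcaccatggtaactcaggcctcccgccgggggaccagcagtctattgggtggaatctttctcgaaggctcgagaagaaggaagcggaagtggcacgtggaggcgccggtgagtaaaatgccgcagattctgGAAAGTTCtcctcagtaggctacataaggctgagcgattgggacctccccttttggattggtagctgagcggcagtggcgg
*Fkbp4*: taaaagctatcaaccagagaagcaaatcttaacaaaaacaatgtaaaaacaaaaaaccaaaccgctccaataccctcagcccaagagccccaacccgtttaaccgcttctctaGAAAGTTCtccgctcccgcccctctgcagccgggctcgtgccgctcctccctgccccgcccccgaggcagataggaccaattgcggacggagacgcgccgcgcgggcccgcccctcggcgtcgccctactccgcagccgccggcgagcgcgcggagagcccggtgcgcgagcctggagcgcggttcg
*Hspa8*: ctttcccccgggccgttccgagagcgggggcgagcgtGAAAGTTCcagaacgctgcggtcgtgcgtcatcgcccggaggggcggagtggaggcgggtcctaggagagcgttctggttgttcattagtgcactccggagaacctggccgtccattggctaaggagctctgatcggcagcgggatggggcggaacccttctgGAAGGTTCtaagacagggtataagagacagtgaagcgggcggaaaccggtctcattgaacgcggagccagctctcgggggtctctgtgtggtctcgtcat

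Folding genes of the endoplasmic reticulum did not move as a group (3 higher and 1 lower of 27, relative median 0.02 and -0.02 between the controls). *Edem1*, which sends misfolded glycoproteins to degradation (rn6 chr4:140886644-140918654), rose from 67.2 to 552 TPM (66.2 in the other control), 8.21 times, and *Herpud1* from 122 to 307 TPM (64.1). The main chaperone *Hspa5* was at 406 and 306 TPM (385), and *Creld2* fell from 39.4 to 15.4 TPM (28.7). Of 20 targets of ATF4, the factor of the integrated stress response, 4 rose and 2 fell. Of those that rose, *Gdf15*, *Cebpb* and *Trib3* are also counted in other lists above. *Gdf15*, a stress hormone, rose from 1.10 to 14.5 TPM (4.53) and *Ppp1r15a*, which ends the stress-induced block of translation, from 2.33 to 17.6 TPM (3.34). *Atf4* itself was at 89.7 and 68.5 TPM (129), *Psph* fell from 10.2 to 4.68 TPM (8.54) and *Atf5* from 92.2 to 45.5 TPM (72.0). In the list of metal handling, 2 of 17 rose, both metallothioneins, and *Hamp*, which encodes the iron hormone hepcidin, fell from 113 to 41.9 TPM (52.5).

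Interferon and chemokine genes were lower where they were called. Of 16 genes of the interferon gamma response, 4 fell and 0 rose, where 5.55% of all genes fell. Their relative median was -0.36 (-0.13 between the controls). *Igtp* and *Irgm*, GTPases that defend cells against parasites and bacteria, fell from 77.9 to 12.3 TPM (59.9 in the other control) and from 15.6 to 3.85 TPM (17.2). *Irf1*, the factor that switches these genes on (rn6 chr10:39109530-39116532), fell from 26.0 to 4.36 TPM (19.4), 5.95 times. Of 24 type I interferon genes, 3 fell and 0 rose, with a relative median of -0.37 (-0.27 between the controls). *Parp14* fell from 38.8 to 14.1 TPM (35.0), *Ifi44* from 8.4 to 4.09 TPM (8.11) and *Oas1b* from 3.00 to 1.11 TPM (3.03). *Mx2* was at 23.2 and 12.1 TPM (31.1) and *Ifi27* at 524 and 471 TPM (489), and neither was called.

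Of 12 chemokine genes above the minimum, 5 fell and 0 rose, where 5.55% of all genes fell. Their relative median was -0.34 (0.06 between the controls). *Xcl1* fell from 3.48 to 0.339 TPM (2.78 in the other control) and *Ccl4* from 2.36 to 0.448 TPM (3.51), both from levels near the minimum. *Cxcl11*, which attracts T cells, fell from 13.2 to 4.50 TPM (8.19) and *Ccl24* from 5.34 to 2.03 TPM (2.55). The calls of *Cxcl11*, *Ccl24* and *Cxcl1* are lost against the other control. *Cxcl1*, a neutrophil attractant, fell from 4.98 to 0.095 TPM, but the other control was at 0.652 TPM, below the minimum. The abundant *Ccl6* (202 and 206 TPM) and *Ccl9* (281 and 199 TPM) were not called. Genes of MHC class II and antigen presentation were not called either, and their relative median was 0.57 (-0.19), with *Cd74* at 126 and 178 TPM (139) and *RT1-Da* at 78.0 and 109 TPM (85.5).

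Markers of the liver's other cells were read beside these genes. None of 18 Kupffer cell and macrophage markers was called, with *Clec4f* at 134 and 141 TPM (134 in the other control), and their summed level was 803, 906 and 865 TPM in the same order. Of 7 NK and T cell markers above the minimum, 3 fell and 1 rose. *Cd8a* fell from 3.08 to 0.602 TPM (2.24 in the other control), *Klrk1* from 3.34 to 0.907 TPM (3.81), and *Xcl1* as given above. *Gzmk* rose from 0.457 to 2.31 TPM (1.61). The summed level of all 25 markers was 35.2, 32.9 and 42.6 TPM. No B cell marker reached the minimum (summed level 5.06, 4.48 and 5.26 TPM). Of 2 neutrophil markers above it, *S100a9* fell from 2.15 to 0.504 TPM (1.25), with a summed level of 13, 10.4 and 13.9 TPM. Endothelial markers had 0 higher and 1 lower of 16, *Gata4* at 2.52 and 0.993 TPM (2.25), and stellate cell markers 1 higher of 15, *Hand2* at 1.27 and 2.72 TPM (1.54). Bile duct markers had no call, and the pancreatic gene *Cela1* was at 23.9 and 29.7 TPM (24.5). Red blood cell markers were not called, but their summed level was 992 TPM at desflurane 0 h, 1866 TPM at 6 h and 633 TPM in the other control. The spans of *Hba1* and *Hba-a2* overlap in the files, so this sum may count the same reads for both. *Hbb* alone was at 491 and 872 TPM (291). The part of red blood cell markers in the other results was not tested. Among 2 platelet markers above the minimum, *Pf4* rose from 1.17 to 2.44 TPM (1.91). The calls of *Gzmk*, *S100a9*, *Hand2* and *Pf4* are lost against the other control.

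Hepatocyte markers were abundant in all libraries, with *Alb* at 58867 and 53282 TPM (57453 in the other control), and of 12 only *Tat* was called. Genes of hepatocytes around the central vein had 3 higher and 2 lower of 17, with a relative median of 0.36 (-0.11 between the controls), and those around the portal vein 4 higher and 1 lower of 20, with a relative median of -0.02 (-0.04). *Cyp2f4*, a periportal P450, fell from 26.5 to 11.1 TPM (23.1), and *Tbx3*, a pericentral factor, from 2.04 to 0.368 TPM (1.25). *Rnf43*, a target of Wnt signalling, fell from 2.23 to 1.04 TPM, with 0.530 TPM in the other control. Most genes of secreted plasma proteins were not called. Of 22 acute phase genes, *Il1rn*, the interleukin-1 receptor antagonist, rose from 2.93 to 7.14 TPM (1.15) and *Hamp* fell as given above. Cytosolic ribosomal proteins (33 genes), respiratory chain subunits (28) and proteasome subunits (29) had no call in either direction, with relative medians of -0.01, 0.02 and 0.02, and of 17 housekeeping genes 1 rose.

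**Figure D5:**
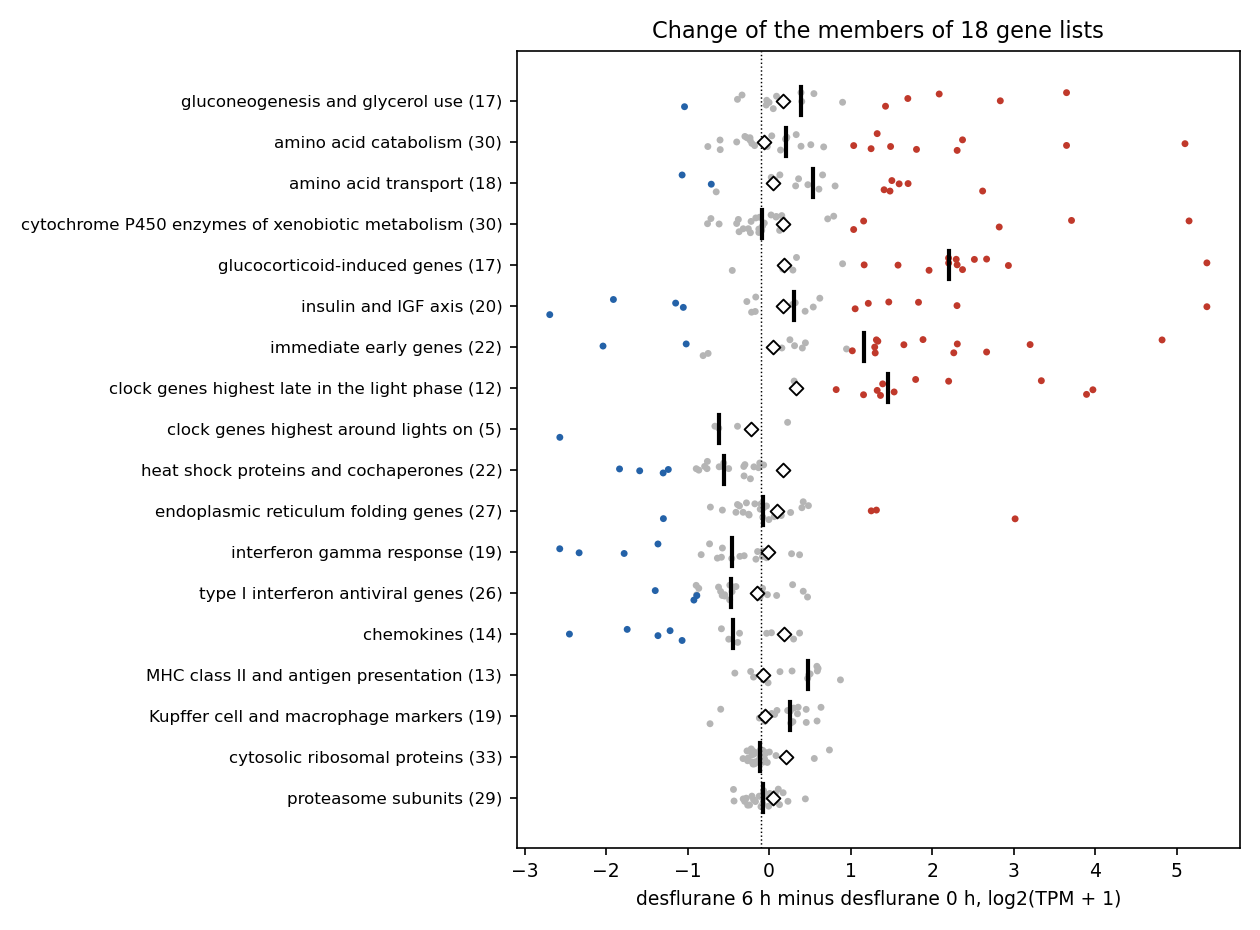
Change of each member of 18 gene lists, in log2(TPM + 1) at desflurane 6 h minus desflurane 0 h, with the number of members measured in brackets. Red and blue points were called higher and lower, grey points were not, the black bar is the list's median, the open diamond its median between the 2 controls, and the dotted line the median of all genes (-0.10). Glucocorticoid-induced, immediate early and late light phase clock genes lie to the right, and heat shock, interferon and chemokine genes lie to the left. The relative median of the type I interferon list was -0.37, against -0.27 between the controls.

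Some large changes rested on the control used. Of the 343 higher genes, 62 were not called against the sevoflurane 0 h animal. Those with the largest change were *Insig1*, *G6pc*, *Rsl1d1* (6.25 to 20.6 TPM, 17.0 in the other control), *Thrsp* and the amino acid transporter *Slc43a1* (9.85 to 29.4 TPM, 14.8). Of the 465 lower genes, 215 were not called against it, led by *Cxcl1*, *Rgs3*, a regulator of G protein signalling (8.07 to 1.64 TPM, 2.57 in the other control), *RGD1562844* (6.21 to 1.25 TPM, 1.61), the hedgehog ligand *Ihh* (2.64 to 0.18 TPM, 1.54) and the vasopressin receptor *Avpr1a* (54.4 to 18.1 TPM, 33.6). Other calls named above are lost in the same way. Among genes that rose these include *Ass1*, *Ppp1r3c*, *Gstm5* and *Bhlhe40*. Among genes that fell they include *Hao2*, *Akr1c2*, *Uros*, *Rxrg*, *Slc16a1*, *Igfals*, *Cish*, *Bcl6*, *Plk2* and *Hspa8*. They also include *Creld2*, *Psph*, *Atf5*, *Hamp*, *Ifi44*, *Tbx3* and *Rnf43*. No gene called in the desflurane pair was called in the opposite direction against the other control.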

How the data were processed

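Liver RNA of 4 rats was sequenced (TruSeq Stranded Total RNA Gold kit, per the labels), and the submitters' processing notes name HISAT2, SAMtools, StringTie and rat build rn6. Their versions are not stated. The deposited tables hold coverage, FPKM and TPM per gene. In the TPM column as the authors deposited it, assembled loci without a gene name sum to 1000000 and named genes come on top, so it was treated as a score that is proportional to the deposited FPKM within a library. Aligned bases, taken as the ratio of deposited coverage to FPKM, were 5.29 Gb (desflurane 0 h), 5.57 Gb (desflurane 6 h) and 3.50 Gb (sevoflurane 0 h), and a TPM of 2 was a coverage of 6.90, 7.28 and 4.72. Read counts were not used.

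Named rows with spans over 200 bp were kept, and rows of one gene were summed (397 genes had more than 1). Computation used python 3.11.15 with pandas 2.3.3, and the scripts were tested on simulated data. Genes named are the 15 with the largest change and the 10 with the largest TPM difference per direction, called list members (at most 6 per list and direction) with up to 3 uncalled abundant ones, and 5 per direction whose call is lost against the other control, 308 in all. A few of these are not reported here. The members and the 51 lists were chosen with earlier results of these data known. Promoters were matched for 13576 of 16985 genes by symbol in RefSeq (GRCr8). Alternatives were another ratio, minimum, pseudocount, scaling, control, and row or span filter.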

Additional observations from a re-analysis of the deposited data

Results flagged for a closer look

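With 1 library in each group no sample could be compared with others of its own group. Of the genes named above, 3 were called in opposite directions by the 2 agents, each against its own control. These differences were not tested. In all 3 the same rule also called the controls apart, lower at desflurane 0 h than at sevoflurane 0 h. The values were 53.6 and 143 TPM for *Insig1*, 1.10 and 4.53 TPM for *Gdf15*, and 1.88 and 4.27 TPM for *Gstm5*. The calls of *Insig1* and *Gstm5* with desflurane are lost against the other control. *Insig1* changed by 2.36 (log2(TPM + 1)) with desflurane and by -1.03 with sevoflurane. *Gdf15* changed by 2.89 with desflurane and by -1.26 with sevoflurane. *Gstm5* changed by 1.04 with desflurane and by -1.05 with sevoflurane.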

How the results depend on the processing

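Each value comes from 1 library, so only size can be read, and a coverage of 6.90 at a TPM of 2 (desflurane 0 h) limits genes of low expression. No paired analysis was possible because each group holds 1 library. With a ratio above 3 the counts were 169 higher and 142 lower, above 1.5 they were 759 and 1268, without a TPM minimum 1523 and 1665, and with a minimum of 5 TPM 271 were lower. The share of calls that were higher was 42.5%, and it was 54.1% with median-of-ratios scaling, 57.1% against the sevoflurane 0 h control, 49.0% against the mean of both controls, 48.7% after rescaling without *Rn7sl1*, 48.8% above 5 TPM, 54.3% at a ratio above 3, 47.8% without a minimum and 37.4% at a ratio above 1.5. The median change of all genes ranged from -0.11 (pseudocount of 0.1) to 0.018 (sevoflurane 0 h control). Of the named genes that were called, 3 changed sign against the sevoflurane 0 h control, *Hspa8* at 0.036, *Bcl6* at 0.23 and *Rnf43* at 0.41. The cause was not tested.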

Other observations

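Gene families picked after their values were seen gave further groups, so their counts are no test. Over all genes above the minimum, 4.1% were higher and 5.55% lower. Of 10 Krüppel-like factors above the minimum, transcription factors that often respond to hormones, 7 rose and 0 fell, with a relative median of 1.12 (0.06 between the controls). Of 11 tubulin genes above it, 5 fell and 0 rose, with *Tubb2a* going from 71.1 to 13.6 TPM (81.7 in the other control) and *Tubb4b* from 98.7 to 37.1 TPM (83.5), and the reads of tubulin genes can be shared between copies. Of 30 mitochondrial carriers of the Slc25 family, 6 rose and 1 fell, and the others were not called. The relative median of this family was 0.14 (0.03 between the controls). The Id proteins were split, with *Id2* falling from 69.1 to 17.0 TPM (80.0) and *Id4* as given above, while *Id1* rose from 2.45 to 5.25 TPM (2.21).

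Chosen in the same way, the cold-inducible RNA-binding proteins, which rise when cells cool, were both higher: *Cirbp* from 9.10 to 24.8 TPM (8.69 in the other control) and *Rbm3* from 15.9 to 64.2 TPM (17.2). Of 10 Srsf splicing factors above the minimum, *Srsf4* rose from 13.6 to 37.9 TPM (8.50) and *Srsf5* from 81.1 to 191 TPM (124), and the others were not called. The call of *Srsf5* is lost against the other control. Of 9 Fox factors above the minimum, 1 rose and 3 fell. The pioneer factors of hepatocytes *Foxa1* and *Foxa2* fell from 2.45 to 1.11 TPM (4.37) and from 7.0 to 2.48 TPM (9.25). The more abundant *Foxa3* was at 18.3 and 12.9 TPM (17.2) and was not called. *Nfe2l2*, which encodes NRF2, fell from 62.6 to 23.0 TPM (78.6).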
